A study of Dugesia japonica with 157 samples.

Results

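The genes described here are 100 transcripts of the planarian flatworm Dugesia japonica that were enriched in the front of the body without being concentrated at the midline. The zone by which they were chosen lies behind the foremost tip, and some of them were higher still at the tip. They were selected on measured values. Counts per 1000000 counts of a section (CPM) were put on the scale log2(CPM + 1), and the lead of a zone was the mean of these values in the zone minus their mean in all other sections. A member had its largest lead, of at least 1, in anterior-posterior sections 8-26, against the zones 1-7, 27-52, 53-65 and 66-78. Leads of zones with unlike numbers of sections are not on 1 scale, so the largest lead need not mark the zone of highest mean. On the right-left axis its mean in central sections 22-30 exceeded the mean of sections 6-15 and 37-48 by less than 0.5. Of 25566 identifiers, 13598 passed a filter of 5 counts in 10% of the sections, 526 were led by sections 8-26 with a lead of at least 1, 307 of these were under the right-left limit, and the 100 with the largest leads are the members. All 100 also passed the filter on the right-left and dorsal-ventral axes. The levels along the anterior-posterior axis and the difference between centre and sides are therefore descriptions without a test, whereas no dorsal-ventral value entered the choice.

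Whole animals of the strain AF, with no treatment group, were sectioned serially along 3 axes, and each section gave 1 library of polyadenylated RNA. The head-to-tail axis had 78 sections, the back-to-belly axis 28 (numbered from dorsal) and the right-to-left axis 51. The labels name no replicate animals, so sections stand in for replicates, and the p-values measure the spread between sections and not between animals. Because each section holds many cell types, more cells of a type and more RNA per cell cannot be told apart.

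Planarians carry their brain in the head, close to the ventral side, with a pair of eyes above it and sensory lobes at the head margin, and nerve cords run from the brain along the ventral side towards the tail. The gut has an unpaired branch in front of the pharynx that lies along the midline, with side branches, while muscle, epidermis and the parenchyma with its stem cells reach across the whole width. Anterior transcripts can therefore lie in a midline organ, in paired lateral organs or in tissue that spans the head. The deposited tables pair no identifier with a gene name, so the members could not be checked against markers of any tissue, and they are named by identifier with no function given.

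Sections with under 20% of their axis's median total were left out, which kept 74, 21 and 37 sections along the anterior-posterior, dorsal-ventral and right-left axes. Along the anterior-posterior axis the kept totals were 175749 to 12945391 estimated counts, with a median of 758136 in sections 8-26, 1684960 in 27-52, 2179858 in 53-65 and 280209 in 66-78. A transcript of low level is more often at 0 in a section of low total, and sections 66-78 were the shallowest. Columns of sections 1-7 could be matched to that group but not to single sections, and 5 of the 7 were kept. With counts thinned to 175749 per anterior-posterior section and 236421 per right-left section, 95 of the 100 members still had their largest lead, of at least 1, in sections 8-26, and 92 stayed under the right-left limit. These conditions were counted apart and without the cut at rank 100. The whole rule applied to thinned counts chose fewer of the members again, as given in the last section.

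Along the anterior-posterior axis the members formed a broad anterior excess and not a set of transcripts restricted to the front. The lead in sections 8-26 had a median of 1.53 on the log2 scale and ran from 1.35 to 2.33. As a ratio of mean CPM in sections 8-26 to that in all other kept sections, the median was 2.44-fold, the lowest 1.53-fold and the highest 23.7-fold. Members were detected in 9 to 19 of the 19 sections of the zone, with a median of 17. Outside the zone the median member was still detected in 68.2% of sections, the range being 16.4% to 100%.

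The members' summed CPM had a median of 6367 in sections 8-16 (4645 to 7631) and of 4606 in sections 17-26 (1704 to 6872), and these ranges overlapped. In sections 8-26 their summed CPM had a lowest value of 1704, a median of 5994 and a highest of 7631, the lowest being section 25. The 5 kept columns of sections 1-7 ran from 1204 to 5319 with a median of 4793, sections 27-52 from 622 to 5252 with a median of 2405, and sections 53-65 from 820 to 4971 with a median of 3176. In sections 66-78 the median was 1190, with a range of 336 to 3635. These ranges overlapped between zones, and DjGI012241_001 alone contributed a mean of 977 CPM in sections 8-26.

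**Figure D1:**
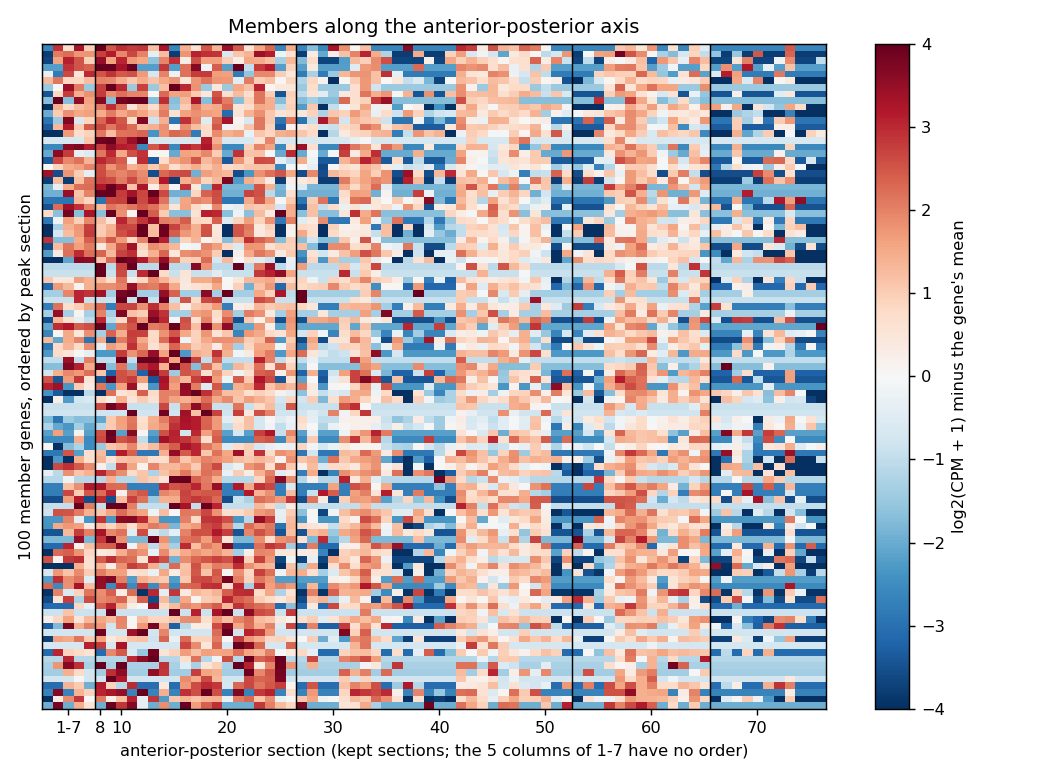
Level of each of the 100 members (rows, ordered by the section of their highest 5-section running mean) in each kept anterior-posterior section (columns), as log2(CPM + 1) minus the gene's own mean, with colours ending at 4 above and below. Vertical lines part the 5 zones, and 61 members peak in sections 8-16 and 36 in 17-26, the zone by which they were chosen. The running mean left out sections 1-7 and centred on section 10 at the earliest, so no peak could lie before that.

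What lay outside sections 8-26 divided the members. The zone with the next largest lead was 1-7 for 56 members, 53-65 for 34, 27-52 for 9 and 66-78 for 1. In the foremost sections 1-7 the lead was positive for 62 members and at least 1 for 20, with a median of 0.31. Behind the zone the median lead was -0.39 in sections 27-52 and 0.05 in 53-65. In sections 66-78 it was negative for 99 members, with a median of -1.77, and 18 members were listed at 0 in every kept section there. All filtered genes, each taken minus its own mean, also had a median below 0 in every kept section there, from -1.15 to -0.49. These sections were the shallowest, and choosing genes led by sections 8-26 bears on their leads elsewhere. The low values there are therefore not read as a trait of the members.

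DjGI007757_001 had the largest lead, 2.33, and was highest at the front of the zone. Its level in sections 8-26 had a lowest value of 0, a median of 29.3 and a highest of 172 CPM, the highest in section 8. In sections 1-7 the median was 11.1 CPM, in 27-52 it was 5.53 CPM and in 53-65 it was 3.27 CPM. In sections 66-78 it was detected in 1 of 11. The 2 transcripts that came next were DjGI005555_001, with a lead of 2.22, and DjGI015228_001, with 2.199. Both were strong in the foremost sections as well, where their leads were 1.94 and 1.96. Because zone 1-7 has fewer sections, these smaller leads do not place it below sections 8-26 in level. DjGI015228_001 had a median of 63.4 CPM (0 to 133) in sections 8-26 and 73.8 CPM (12.9 to 98.0) in sections 1-7, against 9.36 CPM in 27-52.

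Other members were low in the foremost sections. DjGI003097_001, with a lead of 1.93, had a median of 32.0 CPM (0 to 97.8) in sections 8-26, 0 CPM (0 to 14.2) in sections 1-7, 14.9 CPM in 27-52 and 14.9 CPM in 53-65. It had 1 count in all of sections 66-78. DjGI008979_001 had a median of 224 CPM (50.0 to 410) in sections 8-26, 50.1 CPM (0 to 103) in 1-7 and 147 CPM (3.42 to 284) in 27-52. Its lead was -2.10 in sections 1-7 and 0.49 in 27-52, so that among the zones the tip and the rear were low. The 3 rows of DjGI000018 in the set, DjGI000018_002, DjGI000018_003 and DjGI000018_004, had leads of -1.92, -2.28 and -2.04 in sections 1-7. DjGI000018_002 was at 5.99 to 13.8 CPM in the 5 columns of sections 1-7 and at 14.8 to 329 CPM, median 76.5, in 8-26, with its highest values of 263, 329 and 306 CPM in sections 15, 16 and 17.

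Some members with a high ratio of zone to outside were low in counts. DjGI006700_001 had a mean of 13.5 ± 20.8 CPM (SD, n = 19) in sections 8-26 and an 18.7-fold ratio, yet it was detected in 9 of the 19 sections of the zone. It had 0 counts in sections 66-78. DjGI010270_001, with a 10.9-fold ratio, was detected in 11 of 19 sections of the zone and in 21.8% of the sections outside. DjGI008602_001 was at 6.64 ± 10.9 CPM (SD, n = 19) in the zone, and section values there ran from 0 to 45.0 CPM. In 5 members more than 25% of the summed CPM of the axis came from a single section, and the median share of the top section was 7.95%.

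The 3 members with the highest CPM, DjGI012241_001, DjGI016665_001 and DjGI008979_001, had a moderate excess over a level that was detected in 98.2%, 89.1% and 92.7% of the sections outside the zone. DjGI012241_001 was at 977 ± 493 CPM (SD, n = 19) in sections 8-26 and 1006 ± 451 CPM (SD, n = 5) in 1-7. It was at 395 ± 225 CPM (SD, n = 26) in 27-52, 450 ± 248 CPM (SD, n = 13) in 53-65 and 306 ± 263 CPM (SD, n = 11) in 66-78. DjGI016665_001 was at 264 ± 159 CPM (SD, n = 19) in sections 8-26, 216 ± 112 CPM (SD, n = 5) in 1-7 and 72.8 ± 102 CPM (SD, n = 11) in 66-78. CPM are not corrected for transcript length, so these values are not an order of transcript numbers between genes.

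The other members with large leads followed the same forms. DjGI000669_002 (lead 2.06), DjGI003851_001 (1.98), DjGI016963_001 (1.86), DjGI000610_001 (1.84) and DjGI013148_001 (1.83) had their next largest lead in sections 1-7, between 0.32 for DjGI003851_001 and 0.97 for DjGI016963_001. The last members by rank, DjGI011161_001 and DjGI004326_001, had leads of 1.35 each, and the first identifiers outside, DjGI001874_002 and DjGI015489_001, had 1.35 and 1.34. The boundary at rank 100 thus parts near-equal values. At the right-left limit, DjGI006700_001 was inside with a difference of 0.4995, and DjGI009290_001 and DjGI005391_001 were outside with 0.501 and 0.503.

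The genes whose profile was most like that of DjGI007757_001 over the 74 kept anterior-posterior sections were DjGI001275_002 (Pearson r of log2(CPM + 1) 0.67), DjGI001891_002 (r = 0.65) and DjGI001275_001 (r = 0.65). The profiles share the sections and their depth. DjGI001275_001 and DjGI001275_002 are members, and DjGI001891_002 is not, its lead of 3.07 in sections 1-7 being larger than that of 1.01 in 8-26.

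Within sections 8-26, the front was set beside the rear as sections 8-16 (9 sections) and 17-26 (10 sections). These sections entered the choice, which also removed genes with a larger lead in sections 1-7, so the values are a description and nothing about the members is read from the calls. With edgeR's quasi-likelihood test over all 13598 genes, 0.427% were called higher in the front and 2.48% higher in the rear at an adjusted p under 0.05, and no member was called. At an unadjusted p under 0.05 the count was 1 member, beside 15.1% of all genes. DESeq2 called 1 member and 1.7% of all genes with an adjusted p, and limma-trend 0 members and 1.15% of all genes. The median total was 514053 in sections 8-16 and 2000043 in 17-26, and with the section total as a covariate 5 members and 4.41% of all genes were called. DjGI014494_001 was at 132 ± 96.2 CPM (SD, n = 9) in sections 8-16 and 23.8 ± 23.1 CPM (SD, n = 10) in 17-26.

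On the dorsal-ventral axis the members did not share 1 side. A dorsal-ventral section of a whole animal can hold head, trunk and tail together. Its values are therefore not positions within sections 8-26 of the anterior-posterior axis. Outside those sections the median member was still detected in 68.2% of anterior-posterior sections. Dorsal sections 1-9 (5 kept) were compared with ventral sections 19-28 (8 kept), and 0.492% of 18291 genes were called higher dorsally and 0.306% higher ventrally. Exactly 1 member was called in each direction, DjGI004492_001 dorsally and DjGI000292_001 ventrally. At an unadjusted p under 0.05 there were 17 members, 12 higher dorsally and 5 ventrally, and 12.6% of all genes. Values were above 0 in 61 members and in 50.5% of all genes, with a median of 0.22 beside 0.01 over all genes, and with all 28 sections the median was -0.05. The count of called members was 0 when any single one of sections 5, 7, 8, 11-16, 19, 20 and 22 was left out. In those fits 0.337% to 0.747% of all genes were called. The count was 1 without section 17, 21, 24 or 25 (0.462% to 0.885% of all genes). It was 3 without section 4 or 23 (1.05% or 1.15%). Each fit without 1 dorsal-ventral section applied the gene filter anew and tested 18876 to 19040 genes in place of 18291. In such fits the loss of a section and the change of gene set cannot be told apart.

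DjGI004492_001 was high in every kept dorsal section. It was at 143, 85.3, 90.2, 79.1 and 60.5 CPM in dorsal sections 4, 5, 7, 8 and 9. In the middle sections 10-18 it ran from 14.4 to 36.6 CPM with a median of 29.4, and ventrally from 9.01 to 51.1 CPM with a median of 36.5. The lowest dorsal value was above the highest value of the other parts. The dorsal-to-ventral log2 fold change was 1.54 ± 0.38 SE (adjusted p = 0.0444). The call was near the threshold and was lost on leaving out section 5, 7, 8, 9, 19, 20, 22 or 24 or any of the middle sections 11-16 (adjusted p of at most 0.101), and under 4 of 9 other settings, the largest adjusted p being 0.648 with all sections.

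DjGI000292_001 ran the other way. It was at 19.3, 2.87, 5.50, 2.31 and 18.2 CPM in dorsal sections 4, 5, 7, 8 and 9, at 14.0 to 43.1 CPM (median 29.9) in the middle and at 26.0 to 55.0 CPM (median 39.9) ventrally. Dorsal and ventral values did not overlap. The log2 fold change was -2.01 ± 0.49 SE (adjusted p = 0.0441), and the call held on leaving out section 4, 9, 10 or 26 and was lost on leaving out any other kept section (adjusted p of at most 0.149), with all sections (adjusted p = 0.110) and without the gene filter. DjGI000292_002, which shares the first part of its identifier, had a log2 fold change of -1.64 ± 0.54 SE (adjusted p = 0.166). Over the 21 kept dorsal-ventral sections the values of this pair had a Pearson r of 0.92, and reads could have been split between the rows.

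**Figure D2:**
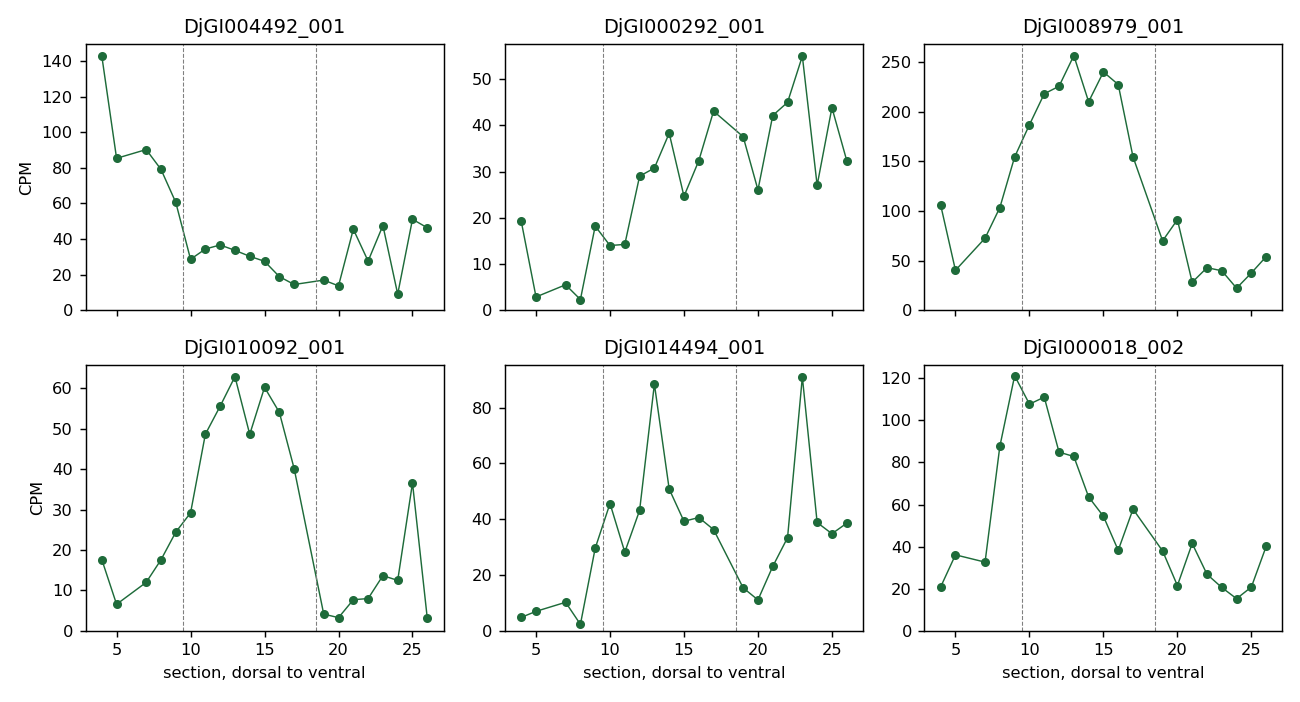
CPM of 6 members in each of the 21 kept dorsal-ventral sections (points), with vertical lines between the dorsal, middle and ventral parts. DjGI004492_001 is highest in dorsal sections, DjGI000292_001 is lowest there, DjGI008979_001 and DjGI010092_001 peak in sections 10-17, and DjGI000018_002 peaks at section 9.

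Between the middle of the dorsal-ventral axis and its ends, calls were more frequent than between dorsal and ventral. This held for all genes (9.1% against 0.798%) as well as for members. With both directions together, the members' share in this fit was not above that of all genes. It was above under limma-trend (10 members beside 7.78%) and with a minimum total of 50% of the median (14 beside 9.89%). Of all genes, 4.69% were called higher in the middle sections 10-18 (8 kept) than in the mean of the ends, and 4.41% higher at the ends. Of the 100 members, 7 were called in favour of the middle and 0 in favour of the ends. At an unadjusted p under 0.05 the test had 25 members on the middle side and 8 on the side of the ends, together 33 of 100 beside 22.1% of all genes. For the middle and the ends, DESeq2 called 13 and 7 members beside 7.67% and 12.4% of all genes with an adjusted p, limma-trend 10 and 0 beside 5.55% and 2.23%, and edgeR with RLE scaling 5 and 2 beside 3.9% and 5.65%. Without section 23 or 26 the count was 11 or 14 (10.5% or 10.9% of all genes in either direction, which is 9.1% with all kept sections), without section 7 or 11 it was 4 (7.31% or 6.47%), and without section 12 or 13 it was 3 (5.91% or 5.59%). The members had a median log2 fold change of 0.31, beside 0.12 over all genes, and 73 members and 55.2% of all genes were above 0. RLE scaling moved these medians to 0.18 and -0.04.

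Depth differed in the same direction, the median total being 14600694 in the middle, 4323922 dorsally and 1874285 ventrally. With the section total as a covariate, the medians of the members and of all genes were both -0.17, 41 members were above 0 and 1 member, DjGI008979_001, was called, beside 1.05% of all genes. With counts thinned to 1 total, 9 of the 97 members tested and 12.6% of all genes were called. The part of depth in the middle calls was not otherwise tested.

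DjGI008979_001 was the clearest middle member. It was at 106, 40.2, 72.5, 103 and 154 CPM in dorsal sections 4, 5, 7, 8 and 9. From section 10 to 17 it ran from 154 to 256 CPM with a median of 222, and ventrally from 22.2 to 91.2 CPM with a median of 41.3. The middle was above both ends except that section 9 equalled the lowest middle value to 3 digits. It had a log2 fold change of 2.00 ± 0.30 SE (adjusted p = 5.22e-05), and the call held on leaving out each of the 21 sections and under each of the 9 other settings tried, with the section total as a covariate among them (1.68, adjusted p = 0.0141).

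DjGI010092_001 had the same form at a lower CPM. Dorsal sections 4, 5, 7, 8 and 9 were at 17.7, 6.56, 12.0, 17.6 and 24.4 CPM, the middle at 29.2 to 62.9 CPM (median 51.4) and the ventral sections at 3.09 to 36.6 CPM (median 7.84). Ventral section 25, at 36.6 CPM, was the only section of the ends within the range of the middle. The log2 fold change was 2.27 ± 0.37 SE (adjusted p = 0.000162), and it was 1.59 (adjusted p = 0.0782) with the section total as a covariate.

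DjGI014494_001 was low dorsally and higher elsewhere. It was at 4.81, 6.97, 10.2, 2.31 and 29.6 CPM in dorsal sections 4, 5, 7, 8 and 9, at 28.2 to 88.4 CPM (median 41.9) in the middle and at 11.1 to 91.0 CPM (median 34.1) ventrally. The middle and ventral values overlapped. Middle against ends, its log2 fold change was 1.53 ± 0.40 SE (adjusted p = 0.0145), and it was 0.94 (adjusted p = 0.402) with the section total as a covariate.

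The rows of DjGI000018 peaked between the dorsal and middle parts. DjGI000018_002 was at 20.9, 36.1, 32.6, 87.7 and 121 CPM in dorsal sections 4, 5, 7, 8 and 9 and at 108 and 111 CPM in sections 10 and 11, then fell to 38.2 to 84.9 CPM in sections 12-17 and 15.3 to 41.5 CPM ventrally. Its middle values overlapped those of the dorsal part. Its log2 fold change for this contrast was 1.18 ± 0.34 SE (adjusted p = 0.0275), without section 7, 11, 12 or 13 the adjusted p was 0.0590, 0.0577, 0.0531 or 0.0506, and with the section total as a covariate it was 0.355. DjGI000018_004 (1.13 ± 0.34 SE, adjusted p = 0.0320) was called as well, and DjGI000018_003 (1.05 ± 0.36 SE, adjusted p = 0.0619) was not. Over the dorsal-ventral sections the 3 rows had Pearson r of 0.96 to 0.98 with each other. The tables hold 31 rows with this first part, and the 3 members may share reads, so they are not independent. The other called middle members were DjGI001590_002 (2.51 ± 0.73 SE, adjusted p = 0.0271, at 6.51 CPM in the middle) and DjGI008274_001 (0.85 ± 0.27 SE, adjusted p = 0.0451).

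**Figure D3:**
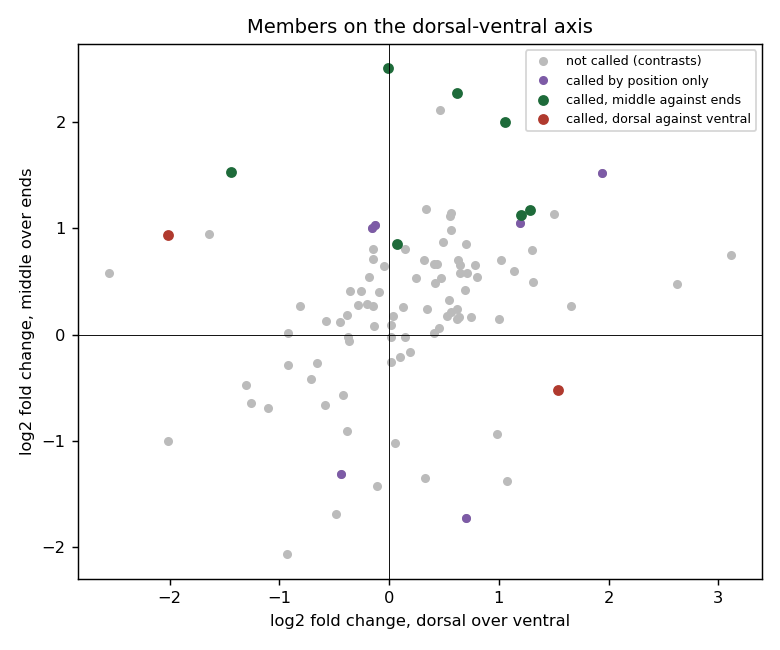
Each point is 1 member, placed by its log2 fold change of the dorsal over the ventral part (horizontal) and of the middle over the mean of the ends (vertical), with colours for members called at an adjusted p under 0.05. The 7 called middle members lie at 0.85 or higher on the vertical axis, and the members called between dorsal and ventral are 1 to the right and 1 to the left.

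A smooth dependence on dorsal-ventral position was called in 13 members by a spline of section number, and in 16.4% of all genes. At an unadjusted p under 0.05 these shares were 28 of 100 and 31%. The smallest adjusted p-values were those of DjGI008979_001 (3.56e-07), DjGI000018_002 (2.79e-05), DjGI000018_004 (4.72e-05) and DjGI000018_003 (0.00016). All 4 calls held on leaving out each of the 21 sections and under each of the 9 other settings tried. Without section 23 the spline called 20 members and 20.5% of all genes, and without section 26 it called 25 members and 18.2% of all genes.

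The ventral sections themselves were uneven. Summed CPM of the members was 5872, 3851 and 4222 in sections 23, 24 and 25, whereas sections 19, 20, 21, 22 and 26 lay between 1908 and 2478. Of the 100 members, 81 had a higher mean log2(CPM + 1) in sections 23-25 than in 19-22, beside 58.4% of all genes tested on the axis, a split chosen after the values were seen. The highest 5-section running mean lay dorsally in 19 members, in the middle in 44 and ventrally in 37, beside 21.6%, 34.6% and 43.8% of 13364 other genes. For members and other genes alike this mean centred on sections 7 to 24 only, so no peak could lie nearer either end. DjGI007757_001, with the largest lead, was ventral in this sense, at 0 to 21.3 CPM (median 11.0) dorsally, 5.77 to 15.3 CPM (median 8.38) in the middle and 0 to 136 CPM (median 39.1) ventrally. Its dorsal-to-ventral log2 fold change of -2.01 ± 0.85 SE was not called (adjusted p = 0.291).

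**Figure D4:**
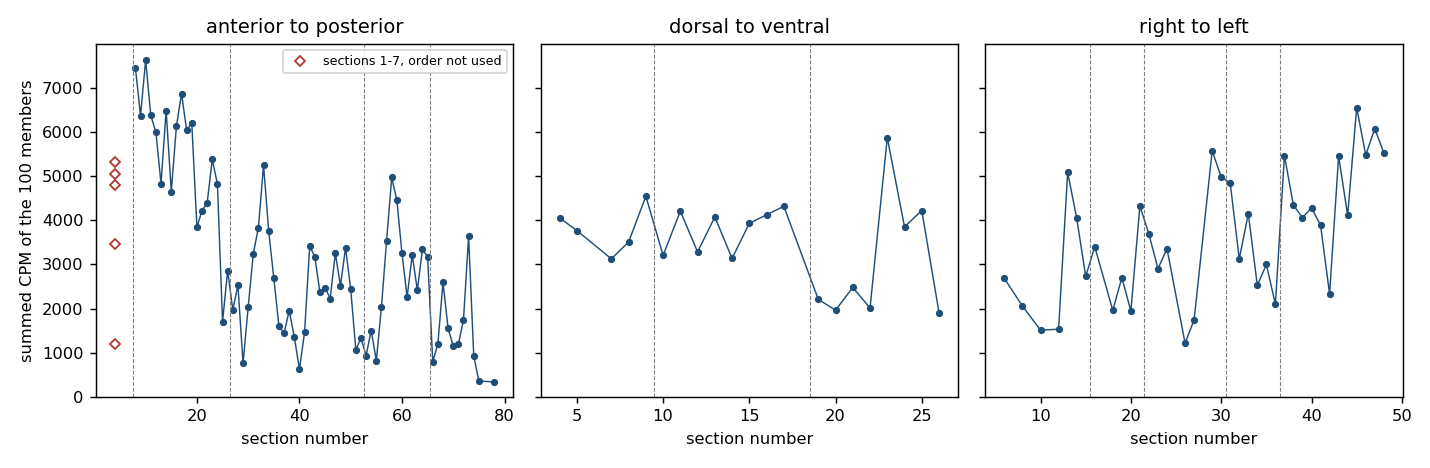
Summed CPM of the 100 members in each kept section along the 3 axes, with dashed lines between the regions compared. Values in sections 8-26 of the anterior-posterior axis have a median of 5994, ventral sections 23 to 25 stand above the other ventral sections at 3851 to 5872, and the left sections 37-48 have a median of 4894 against 2681 in the right sections 6-15.

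The members can also be set out by their next largest lead along the body and their values across its height. The 34 members with their next largest lead in sections 53-65 had a median of 0.69 for the middle-to-ends log2 fold change, and 33 were above 0. In the 56 members next led by sections 1-7 the median was 0.13, and 33 were above 0. Over all genes the median was 0.12, and 55.2% were above 0. Sections 53-65 had the highest median total of any zone, 2179858 beside 1001557 in sections 1-7. The dorsal-ventral middle had the highest of its axis. Neither the difference between these classes nor the part of depth in it was tested. DjGI014494_001 and the rows of DjGI000018 belong to the first of these classes, while DjGI010092_001 belongs to the second and DjGI008979_001 to neither.

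For comparison, 100 anterior genes chosen alike but with a right-left difference of at least 0.5 had 42 calls for the middle and 0 for the ends, with a median log2 fold change of 1.13. Between dorsal and ventral 4 of them were called, and by position 50. These counts stand beside the 7, 2 and 13 of the members. Of all genes, 4.69% were called for the middle, 4.41% for the ends, 0.798% between dorsal and ventral and 16.4% by position. The comparison genes were chosen for higher values in right-left sections 22-30, with a median total of 3685410. That total was 507763 in sections 6-15 and 1511179 in 37-48. The dorsal-ventral middle was likewise the deepest part of its axis. The difference between the sets and the part of depth in it were not tested.

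Across the body the choice limited how far the centre could exceed the sides. A right-left section can likewise hold head, trunk and tail together, so its values are not those of the anterior zone alone. The median summed CPM of the members was 2681 in the right sections 6-15, 3356 in the centre and 4894 in the left sections 37-48, so that the centre lay between the sides. The difference between the centre and the sides had a median of -0.05 and ran from -1.50 to 0.50, beside a median of 0.15 over all genes that passed both filters. In 13 members the centre was lower than the sides by more than 0.5, in 42 by 0 to 0.5, and in 45 it was higher by 0 to 0.5. The extreme was the pair DjGI000292_002 and DjGI000292_001, with differences of -1.50 and -1.28, followed by DjGI017273_001 with -1.15.

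DjGI000292_001 was low at the centre and high towards both margins. Its level was 33.9 to 92.4 CPM (median 49.7) in the right sections 6-15, 11.2 to 35.1 CPM (median 23.0) in the centre and 20.9 to 218 CPM (median 59.2) in the left sections 37-48. The outermost kept right sections, 6 and 8, were at 92.4 and 88.4 CPM, and sections 45, 46 and 47 on the left at 123, 218 and 188 CPM. By contrast DjGI017273_001 had no such mirrored form, with medians of 20.4 CPM on the right, 21.8 CPM in the centre and 71.0 CPM on the left. DjGI001513_002, near the upper limit with a difference of 0.49, was at 2.55 to 46.5 CPM (median 26.4) on the right, 11.8 to 26.6 CPM (median 21.5) in the centre and 0 to 42.5 CPM (median 19.1) on the left.

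**Figure D5:**
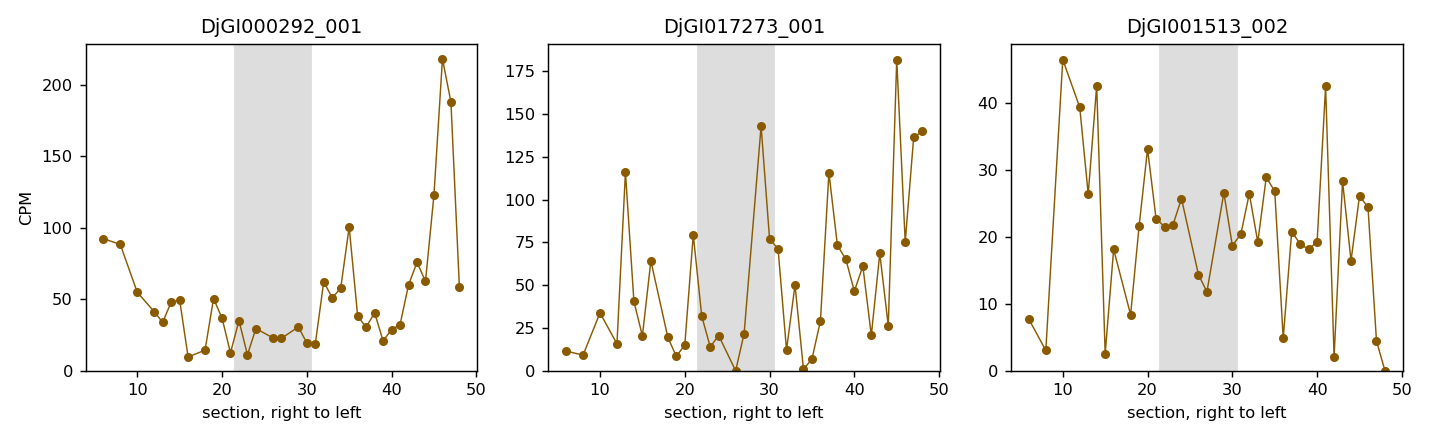
CPM of 3 members in each of the 37 kept right-left sections (points), with the central sections 22-30 shaded. DjGI000292_001 is lowest at the centre and rises towards both margins, DjGI017273_001 is higher in sections 37-48 with a median of 71.0 CPM, and DjGI001513_002 shows neither form.

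Right and left were set side by side as sections 6-15 (7 kept) and 37-48 (12 kept). The choice used these sections, both sides together against the centre, so the values are a description and nothing about the members is read from the calls. Of 16463 genes, 0.0425% were called higher on the right and 0.0182% higher on the left with edgeR's quasi-likelihood test, and no member was called. At an unadjusted p under 0.05 there were 14 members, beside 15.3% of all genes. DESeq2 called 0 members and 1.29% of all genes with an adjusted p, and limma-trend 5 members and 2.52% of all genes. Log2 fold changes were below 0, that is higher on the left, in 72 members and in 62.8% of all genes, with medians of -0.50 and -0.31. Total counts moved with the sides, with a median of 507763 on the right and 1511179 on the left.

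Of the 3 members with the highest CPM, DjGI012241_001 and DjGI016665_001 had higher means on the left. DjGI012241_001 was at 363 ± 276 CPM (SD, n = 7) on the right and 762 ± 241 CPM (SD, n = 12) in the left sections. DjGI016665_001 was at 143 ± 154 CPM (SD, n = 7) on the right and 396 ± 159 CPM (SD, n = 12) on the left. The third, DjGI008979_001, was level, at 95.01 ± 69.1 CPM (SD, n = 7) on the right and 96.2 ± 57.7 CPM (SD, n = 12) on the left. The highest 5-section running mean lay in sections 37-48 in 73 members and in 50.6% of 13364 other genes, and in sections 6-15 in 4 members and in 7.09% of the others. In the central sections 22-30 it lay in 3 members and in 14.5% of the others, and the choice, which removed genes higher at the centre, bears on all of these shares. The running mean could not centre on the outermost kept sections of either side.

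On the dorsal-ventral axis, which the choice did not use, the members varied together only weakly. With 1 row for each of the 95 distinct first parts, the median Pearson r between members was 0.17 over the 21 dorsal-ventral sections, and that of members with 13364 other genes was 0.10. Over the 37 right-left sections, whose values entered the choice, it was 0.31 between members and 0.22 with other genes. These values share the libraries and their depth, and no order of strength is drawn from them. Pairs with the same first part were closer, the pair DjGI001275_001 and DjGI001275_002 having r = 0.91 along the anterior-posterior axis, 0.70 along the right-left axis and 0.21 along the dorsal-ventral axis.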

How the data were processed

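Polyadenylated RNA of 157 sections of Dugesia japonica was sequenced with Lasy-Seq version 1.1 after Direct-TRI lysis, per the labels. The authors deposited estimated counts, 1 table per axis, and 0.0256% of values were not whole and were rounded before tests. The submitters' processing notes name Salmon, BWA 0.7.17-r1188, fastp 0.21.0 and bcl2fastq 2.20.0, and the reference is not given in the sources used here. CPM were scaled to the column total. The members and lists were chosen with earlier results of these data known.

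Tests used edgeR 4.0.16 (R 4.3.3, quasi-likelihood F-test, TMM factors, Benjamini-Hochberg adjustment over all genes of an axis, called at an adjusted p under 0.05), with 1 fit per axis over all its groups and a spline with 4 degrees of freedom for position. Standard errors were read from the F statistic. Alternatives used DESeq2 1.42.0, limma 3.58.1, other scalings, filters and depths, and each section left out in turn, with the gene filter then applied anew. Library numbers follow section order, so library order and position cannot be told apart.

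Members named are the 10 with the largest lead, the 3 with the highest CPM, the 3 at either end of the right-left difference, 2 on each side of a limit, and per test and direction up to 4 called members with at least 10 CPM, by fold change or, for position, by adjusted p. Others were chosen after their values were seen: DjGI001590_002, DjGI008274_001 and those set beside a named row.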

Additional observations from a re-analysis of the deposited data

Results flagged for a closer look

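The values of named members and the summed CPM of all members were looked at in groups of 4 to 10 sections. Among 56 such groups of values, 7 held a section that stood far apart from the rest by Dixon's criterion. Chance meets it in about 1 in 20 groups of normally distributed values. The CPM used here were not transformed and held zeros, so that rate need not apply and the 7 are not set against it. DjGI010092_001 was at 36.6 CPM in ventral section 25, with the next ventral value at 13.7 CPM and a median of 7.84 CPM. DjGI014494_001 stood apart in all 3 dorsal-ventral parts. It was at 29.6 CPM in dorsal section 9 (next 10.2), at 88.4 CPM in middle section 13 (next 50.8) and at 91.0 CPM in ventral section 23 (next 38.8). On the right side, section 13 held the highest value of DjGI017273_001, 116 CPM (next 40.5, median 20.4). In the same section DjGI006700_001 was at 10.1 CPM and was listed at 0 in the 6 other kept right sections. DjGI008602_001 was at 21.1 CPM in right section 10 (next 6.28, median 1.97).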

How the results depend on the processing

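No direction reversed among the named calls under the settings tried. The make-up of the set depended on the settings: of the 100 members, 53 were chosen again with all sections, 49 with a minimum total of 50% of the median, 64 with a pseudocount of 0.1 CPM, 20 with one of 10 CPM, 38 without sections 1-7 and 63 with thinned counts. With TMM scaling 82 were, and 77 to 93 with 1 section of 8-26 left out. The share of all genes called, in parentheses, moved with many of the counts that follow. Between front and rear of the zone, in place of 0 (2.9%), DESeq2 called 1 member (1.7%), the section total as a covariate 5 (4.41%) and thinned counts 1 (2.21%), and each left-out section gave 0. Between dorsal and ventral, in place of 2 (0.798%), DESeq2 called 5 (3.39%), RLE scaling 1 (0.804%), all sections 0 (0.2%) and limma-trend 1 (0.558%). The 50% minimum total gave 4 (1.83%), no gene filter 1 (0.836%) and thinned counts 1 (1.65%). With a section left out the count was 0 to 3 (0.322% to 1.47%). Between middle and ends, in place of 7 (9.1%), a gene filter of 5 counts in 50% of sections called 11 (11.9%), DESeq2 20 (20.1%), the 50% minimum total 14 (9.89%) and the covariate 1 (1.05%). Leaving out a section gave 3 to 14 (5.53% to 10.9%). By position, in place of 13 (16.4%), DESeq2 called 27 (32.1%), all sections 26 (26.4%), limma-trend 24 (24.2%) and the 50% minimum total 23 (15.3%). With a section left out it was 12 to 25 (13.9% to 20.5%). Between right and left, in place of 0 (0.0607%), limma-trend called 5 (2.52%), and each left-out section gave 0. The cause of these changes was not tested. Limits: sections of an axis may come from a single animal, depth differed between the parts compared, and low totals keep weak members from being detected.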
